A study of Mus musculus with 6 samples.

Results

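The respiratory chain genes are the protein-coding genes for the subunits of the electron transport chain and the ATP synthase, together with cytochrome c. They were taken by symbol (mt-Nd, mt-Co, mt-Atp and mt-Cytb, and the Nduf, Sdh, Uqcr, Cox4 to Cox8, Cycs, Cyct, Cyc1 and Atp5 series), which gave 101 genes of the 54532 in the files. Of these, 13 are encoded by mitochondrial DNA, 4 are nuclear genes for forms made in the testis (Cyct, Cox6b2, Cox7b2 and Cox8c), and 84 are other nuclear genes, called somatic here. By complex, 42 belong to complex I, 4 to complex II, 10 to complex III, 23 to complex IV (Ndufa4 and Ndufa4l2 counted with it), 20 to complex V and 2 are cytochromes c. The symbol pattern also takes in paralogues and associated factors such as Atp5s.

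RNA was sequenced from pachytene cells, the spermatocytes in the long middle stage of meiotic prophase, which had been purified by STA-PUT (sedimentation through a gradient under gravity) from testes of mice at about postnatal day 80. The 3 groups were WT, MAPS KO (KO below) and MAPS EE-KO (EE_KO below), which the labels describe as MAPS overexpression on the KO background; the sources used here do not say what EE stands for, which promoter drives it or which strain was used. For each genotype 3 mice supplied the cells and 2 libraries were prepared, each from 1.3 µg of RNA. The study asked whether the sex chromosomes were still silenced in these cells without MAPS. No label ties a library to a mouse, so each p-value here weighs a difference against the spread of these libraries alone, which may be technical.

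Electrons from NADH enter the chain at complex I and those from succinate at complex II; complex III passes them to cytochrome c, complex IV passes them from there to oxygen, and complex V uses the proton gradient to make ATP. Mitochondrial DNA encodes a core part of every complex but complex II, and the nucleus encodes the rest. Male germ cells swap several nuclear subunits for testis forms during meiosis, and genes on the X chromosome are silenced in pachytene cells.

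Levels are FPKM, fragments per kilobase of exon and per fixed number of fragments, which allows levels of different genes to be set side by side. The files gave 14178387 to 16565238 reads on genes per library. Library sizes implied by the FPKM were 13999589 and 15135989 in WT, 17966255 and 17373642 in KO, and 14642866 and 14966622 in EE_KO. In KO the reads on genes were fewer than that size, and in WT and EE_KO more. The deposited scale thus sets KO lower, relative to WT and EE_KO, than scaling by reads on genes would. The gene that encodes MAPS, 1700102P08Rik, stood at 157.0 and 150.2 FPKM in WT, 7.97 and 10.1 in KO and 108.6 and 82.2 in EE_KO. The cell types in the libraries were not alike. The 13 markers of pachytene cells summed to 6748 and 6147 FPKM in WT and 5821 and 6316 in EE_KO but to 298 and 356 in KO, where 12 of them were lower and Sycp1 did not pass the test. The 13 Sertoli cell markers went the other way, from 295 and 297 in WT to 4517 and 4233 in KO (491 and 259 in EE_KO), and the 9 Leydig cell markers went from 61.6 and 113 to 2292 and 2195 (183 and 87.0 in EE_KO). Spermatogonial markers (10 listed, 8 tested, all 8 higher) summed to 21.6 and 23.2 in WT and to 194 and 237 in KO. Of these 8, Lin28a, Sall4 and Zbtb16 passed the filter on low levels given below only through KO, and Gfra1, not tested, averaged 1.08 FPKM in WT and 0.433 in KO. The spermatid markers (8 of 8 lower) summed to 1198 and 2642 in WT and to 14.1 and 14.2 in KO (1503 and 2203 in EE_KO). All 13 Sertoli and all 9 Leydig markers rose in KO against WT (Lhcgr passed the filter only through KO), and no listed marker was at 0 in all libraries. Sycp1 stood at 43.2 and 47.9 FPKM in WT and 38.0 and 41.9 in KO. Sycp3 stood at 74.0 and 72.8 and at 42.4 and 54.9, a fall not kept under all 5 scalings described below. By most of these markers the KO libraries thus went against their label as purified pachytene cells. WT and EE_KO held the pachytene markers, and those of spermatids as well. These marker levels moved with each KO difference below, and their part in it was not tested. In such bulk RNA, fewer cells of a type and less RNA per cell cannot be told apart.

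Against WT, KO had lower testis forms, higher mitochondrially encoded transcripts and a mixed response among the somatic nuclear subunits. A gene was called at a Benjamini-Hochberg adjusted p below 0.05 from limma, fitted to log2(FPKM + 1) over all 15366 genes with a mean of at least 1 FPKM. Of the respiratory chain genes, 96 passed that filter; Ndufb2, Cox4i2, Cox6a2, Cox8b and a second Atp5o entry did not. Of the 96, 31 rose and 48 fell in KO, and 17 were not called. Among all genes tested 38.0% rose and 48.2% fell, so the members' shares were near the background on the deposited scale. What set the classes apart was direction. Of the 13 mitochondrially encoded genes 11 rose and none fell (median log2 change 1.92). All 4 testis forms fell (median -3.89). Of 79 somatic nuclear genes 20 rose and 44 fell (median -0.42, beside -0.29 over all genes tested), and the 3 X-linked members all rose. Among the risen, mt-Nd3, Cox7a1 and the X-linked Cox7b passed the filter only through KO, so a higher KO level was required of them. The sign of the somatic median depended on the scale: it was 0.01 with TPM, 0.20 with quantile scaling and 0.13 with mitochondrial genes left out of the total (the nuclear total below), while the median of all genes went to 0.09, 0.03 and 0.20. Under all 5 scalings tried, the deposited one included, 30 of 96 members rose (38.0% of all genes did). Under the same 5, 20 of 96 fell, a smaller share than the 39.2% of all genes. A fall named below is among those 20 unless its sentence says otherwise.

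**Figure D1:**
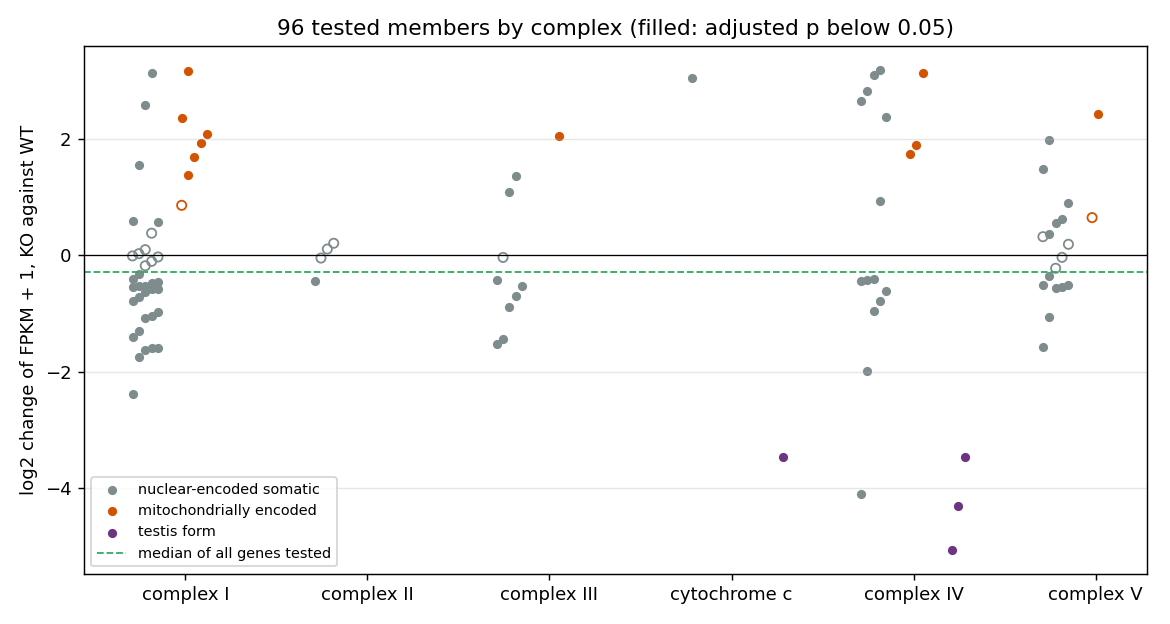
Log2 change of FPKM + 1 in KO against WT for each of the 96 tested respiratory chain genes (y axis), grouped by complex (x axis) and coloured by class; filled points passed the test and open points did not. Mitochondrially encoded genes lie above 0 and testis forms between -3.46 and -5.05, while somatic nuclear genes lie on both sides of the dashed median of all genes (-0.29 on this scale, 0.09 with TPM).

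In KO the testis forms fell and their somatic partners rose. Cyct is the cytochrome c of male germ cells and Cycs the cytochrome c of other tissues; Cox6b2, Cox7b2 and Cox8c are testis forms of complex IV subunits whose somatic counterparts are Cox6b1, Cox7b and Cox8a. The stretches of 250 bases before the start sites of 7 of these genes are shown so that the 2 forms of a subunit can be read side by side. That of Cox6a1, a somatic subunit that rose, is added as an example with several matches. They are RefSeq sequences of build GRCm38.p6, written 5′ to 3′ on the gene's strand, and capitals mark matches to motifs described after them.
Cyct: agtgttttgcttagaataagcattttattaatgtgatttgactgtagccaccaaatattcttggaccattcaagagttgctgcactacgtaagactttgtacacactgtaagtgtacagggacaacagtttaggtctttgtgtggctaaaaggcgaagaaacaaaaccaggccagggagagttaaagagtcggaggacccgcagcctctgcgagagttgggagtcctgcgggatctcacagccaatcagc
Cycs: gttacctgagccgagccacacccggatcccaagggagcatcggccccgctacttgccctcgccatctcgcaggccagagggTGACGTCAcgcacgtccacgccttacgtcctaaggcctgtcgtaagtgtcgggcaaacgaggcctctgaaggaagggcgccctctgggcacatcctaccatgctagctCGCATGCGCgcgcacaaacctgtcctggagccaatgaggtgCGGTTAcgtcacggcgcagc
Cox6b2: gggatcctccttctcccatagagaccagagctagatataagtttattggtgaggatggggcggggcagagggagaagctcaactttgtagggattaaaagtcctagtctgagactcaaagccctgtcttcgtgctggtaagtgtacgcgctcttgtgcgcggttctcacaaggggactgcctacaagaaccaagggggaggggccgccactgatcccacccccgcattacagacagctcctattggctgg
Cox6b1: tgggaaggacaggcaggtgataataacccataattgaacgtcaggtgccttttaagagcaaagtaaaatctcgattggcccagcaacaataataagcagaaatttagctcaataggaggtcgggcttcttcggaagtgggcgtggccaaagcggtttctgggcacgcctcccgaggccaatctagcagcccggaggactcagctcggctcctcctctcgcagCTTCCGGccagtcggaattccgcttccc
Cox7b2: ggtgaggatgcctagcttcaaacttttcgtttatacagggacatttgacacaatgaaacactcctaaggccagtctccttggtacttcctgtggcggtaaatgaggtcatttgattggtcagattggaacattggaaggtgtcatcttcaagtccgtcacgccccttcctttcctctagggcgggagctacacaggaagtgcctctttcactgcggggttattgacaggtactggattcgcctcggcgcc
Cox7b: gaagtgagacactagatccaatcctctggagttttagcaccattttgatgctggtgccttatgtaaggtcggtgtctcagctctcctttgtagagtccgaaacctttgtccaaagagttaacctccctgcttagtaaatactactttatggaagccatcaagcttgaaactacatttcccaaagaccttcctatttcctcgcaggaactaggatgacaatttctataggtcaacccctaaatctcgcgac
Cox8a: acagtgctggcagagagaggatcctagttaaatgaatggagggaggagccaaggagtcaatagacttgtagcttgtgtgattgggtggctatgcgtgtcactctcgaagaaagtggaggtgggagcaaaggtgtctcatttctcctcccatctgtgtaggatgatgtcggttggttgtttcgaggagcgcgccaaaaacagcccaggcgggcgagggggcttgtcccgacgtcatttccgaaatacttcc
Cox6a1: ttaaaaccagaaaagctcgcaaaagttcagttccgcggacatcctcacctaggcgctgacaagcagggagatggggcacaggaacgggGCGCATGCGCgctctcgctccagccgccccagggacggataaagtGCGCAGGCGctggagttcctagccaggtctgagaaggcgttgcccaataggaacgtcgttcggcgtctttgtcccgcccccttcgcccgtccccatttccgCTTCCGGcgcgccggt
The positions are, for Cyct, chr2:76360454-76360703, minus strand; for Cycs, chr6:50566570-50566819, minus strand; for Cox6b2, chr7:4753095-4753344, minus strand; for Cox6b1, chr7:30626115-30626364, minus strand; for Cox7b2, chr5:71548206-71548455, minus strand; for Cox7b, chrX:106015450-106015699, plus strand; for Cox8a, chr19:7217617-7217866, minus strand; and for Cox6a1, chr5:115348959-115349208, minus strand.

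Over windows of 300 bases (250 before and 50 after the start site), RefSeq entries were found for 65 somatic nuclear members and for 3 testis forms. The letters searched on both strands were GCGCANGCG (within the NRF1 motif), CCGGAAG (ETS factors), AAGATGGCG (YY1), TGACGTCA (the cyclic AMP response element, CRE) and TAACNG (MYB factors); no letters of one are required by another, but matches may lie over each other. NRF1 letters were in windows of 21 of 65 somatic members (32.3%, beside 7.0% of all 27025 genes with a window), and ETS letters in 16 (24.6%, beside 9.9%). YY1 letters were in 7 (10.8%, beside 1.6%), CRE letters in 5 (7.7%, beside 2.0%) and MYB letters in 13 (20.0%, beside 25.9%). None of the 5 was found in the windows of the 3 testis forms, which are too few to set a share beside that of the somatic members. In the printed stretches Cycs holds an NRF1, a CRE and a MYB match, Cox6b1 an ETS match, and Cox6a1 NRF1 matches and an ETS match. Those of the somatic Cox7b and Cox8a hold none, like those of the testis forms. The matches are descriptions of letters, not of binding, and their relation to the changes in KO was not tested. The somatic windows also held more CG pairs, with a median of 19 per window against 10 in those of the testis forms and 7 in all windows.

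Cyct (ENSMUSG00000056436, chr2:76353942-76360450, minus strand) stood at 111.9 and 101.4 FPKM in WT, 6.71 and 11.2 in KO and 84.6 and 77.8 in EE_KO. Cycs (ENSMUSG00000063694, chr6:50562563-50566538, minus strand) stood at 3.57 and 3.42 in WT, 38.3 and 33.5 in KO and 3.87 and 2.26 in EE_KO. Both KO libraries lay outside the range of all other libraries, low for Cyct and high for Cycs. In KO against WT the log2 change of Cyct was -3.47 (SE 0.20, adjusted p = 1.54e-06) and that of Cycs 3.04 (SE 0.20, adjusted p = 2.63e-06). Cyct made up 96.9 and 96.7% of the pair's FPKM in WT, 14.9 and 25.1% in KO and 95.6 and 97.2% in EE_KO. The sum of the pair was not kept: it was 110 ± 7.55 FPKM in WT (SD, n = 2) and 44.9 ± 0.162 in KO. Cycs shares 26.1% of its 50-base windows with other genes, chiefly Gm10053.

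Cox8c (ENSMUSG00000043319, chr12:102899316-102900526, plus strand), a subunit of complex IV, had the highest level of any nuclear member in WT. It stood at 944.8 and 947.2 FPKM in WT, 22.6 and 33.6 in KO and 813.6 and 829.2 in EE_KO, a fall of 33.7-fold in KO (log2 change -5.05, SE 0.17, adjusted p = 1.31e-07). Among the 101 members it held place 2 by mean level in WT and place 53 in KO. Cox8a (chr19:7215153-7217616, minus strand) stood at 12.1 and 13.3 in WT, 112.1 and 81.7 in KO and 9.52 and 8.46 in EE_KO (log2 change 2.82, SE 0.16, adjusted p = 1.44e-06). The rise of Cox8a by 7.64-fold left the sum of the pair at 125 ± 13.7 FPKM in KO, against 959 ± 2.56 in WT. Cox8b, a form of heart and skeletal muscle, was listed at 0 in both WT libraries, and its recovered reads were 2 and 9 in KO and 1 and 1 in EE_KO.

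Cox6b2 (chr7:4751792-4753094, minus strand) stood at 254.7 and 249.8 FPKM in WT, 10.1 and 13.8 in KO and 209.4 and 200.1 in EE_KO. Cox6b1 (chr7:30616861-30626151, minus strand), on the same chromosome, stood at 11.9 and 11.7, 62.9 and 67.1, and 12.1 and 10.9. The testis form thus held 95.5% of the pair in both WT libraries and 13.8 and 17.1% in KO. The log2 change of Cox6b2 was -4.30 (SE 0.14, adjusted p = 1.18e-07) and that of Cox6b1 2.37 (SE 0.11, adjusted p = 5.12e-07). Cox7b2 (chr5:71442824-71548205, minus strand) stood at 224.2 and 176.6 in WT, 15.1 and 19.6 in KO and 184.3 and 180.2 in EE_KO. Its partner Cox7b (chrX:106015700-106022450, plus strand) is X-linked and stood at 0.471 and 0.816 in WT, 14.4 and 13.2 in KO and 0.956 and 0.936 in EE_KO. This was the only one of the 4 pairs in which the testis form still held more FPKM than the somatic form in both KO libraries, at 51.1 and 59.8%. That order rests on the exon lengths, 542 bases for Cox7b2 and 1214 for Cox7b. In recovered reads Cox7b was the higher in KO, with 315 and 279 against 147 and 185. Cox7b2 fell by 3.46 (SE 0.16, adjusted p = 4.87e-07). Cox7b rose by 3.18 (SE 0.16, adjusted p = 8.22e-07), but it passed the filter on low levels only through KO, as did Cox7a1, mt-Nd3 and mt-Atp8, so that a higher KO level was required of these 4. For each of the 4 shares the exact permutation test of KO against WT gave p = 0.333, the smallest that 2 against 2 libraries allow. A share within a library does not depend on the scale of that library, but it does depend on the exon lengths used.

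**Figure D2:**
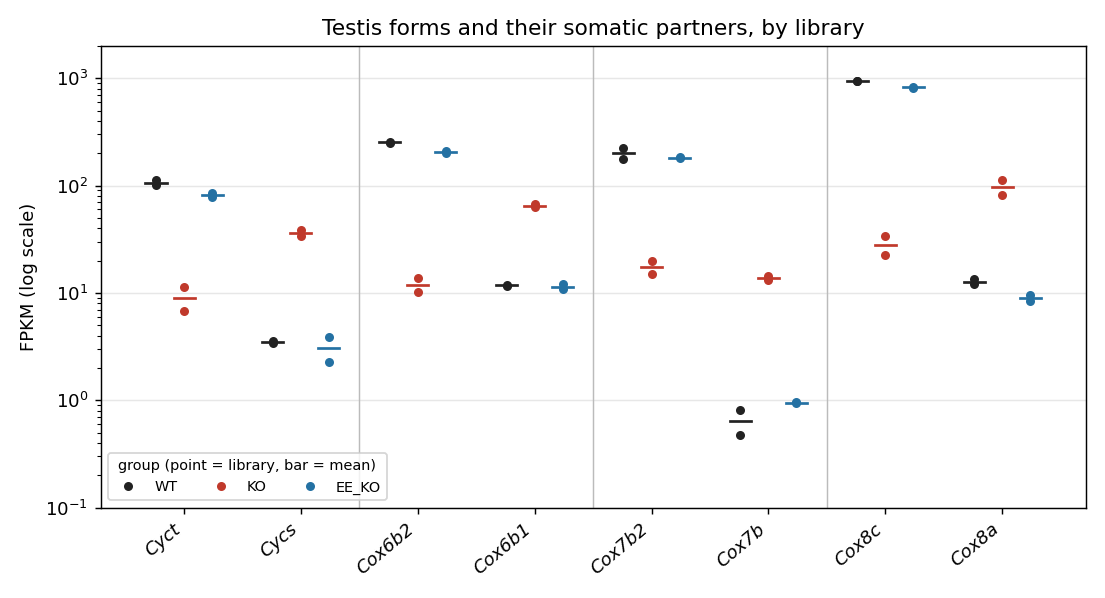
FPKM (y axis, log scale) of the 4 testis forms, each followed by its somatic partner (x axis), with 1 point per library, a bar at the mean and colours for WT, KO and EE_KO. In each pair the KO points of the testis form lie below WT and EE_KO and those of the somatic form above them, and WT and EE_KO lie close together.

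Among other tissue forms, Ndufa4l2 and Ndufa4 changed places. Ndufa4 belongs to complex IV despite its name, and Ndufa4l2, its paralogue, is known as a hypoxia-induced gene. Ndufa4l2 (chr10:127514967-127517154, plus strand) stood at 35.3 and 27.2 FPKM in WT, 0.508 and 1.31 in KO and 26.6 and 26.8 in EE_KO. Ndufa4 stood at 3.78 and 4.69, 33.2 and 30.2, and 6.03 and 3.34. By share this exchange was larger than that in any of the 4 pairs: Ndufa4l2 held 90.3 and 85.3% of the sum in WT and 1.51 and 4.17% in KO. As a mean log2 ratio it was near that of Cox8c over Cox8a, which was 6.22 in WT and -1.80 in KO. The ratio of Ndufa4l2 over Ndufa4 was 2.88 in WT and -5.28 in KO. Here the sum changed little, from 35.5 ± 5.07 to 32.6 ± 1.52 FPKM (exact permutation p = 0.667). The log2 change of Ndufa4l2 was -4.10 (SE 0.21, adjusted p = 9.45e-07).

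Cox7a1 is the heart and muscle form of a complex IV subunit, and Cox7a2 the form of most other tissues. Cox7a1 stood at 1.07 and 1.11 FPKM in WT, 15.0 and 18.8 in KO and 1.40 and 0.125 in EE_KO, a rise of 3.09 in KO (SE 0.32, adjusted p = 3.56e-05). Cox7a2 stood at 184.0 and 169.4 in WT, 43.4 and 44.7 in KO and 135.1 and 154.9 in EE_KO, a fall of 1.98 (SE 0.11, adjusted p = 1.33e-06). Cox7a2 nevertheless kept 74.3 and 70.4% of the pair in KO. Cox7a2l, a related protein that takes part in supercomplexes, fell by 0.44 as deposited (SE 0.10, adjusted p = 0.00415), a call that was lost with TPM and turned to 0.24 with quantile scaling and 0.11 with mitochondrial genes left out of the total. Of the Cox6a forms, Cox6a1 rose from 143.1 and 145.1 to 276.7 and 275.7 FPKM (log2 change 0.93, SE 0.11, adjusted p = 6.70e-05) and was the highest nuclear member in KO, whereas Cox6a2, the muscle form, averaged 0.962 FPKM in WT and 0.330 in KO and was not tested. Cox4i1, the general form of subunit 4, fell from 199.5 and 185.3 to 91.4 and 105.9 (log2 change -0.96, SE 0.11, adjusted p = 7.18e-05), a call lost with quantile scaling (-0.08); Cox4i2, the lung form, averaged 0.394 in WT and 0.832 in KO and was not tested.

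The 3 X-linked members all rose in KO and returned in EE_KO. Besides Cox7b, these were the complex I subunits Ndufb11 and Ndufa1. Ndufb11 (chrX:20615326-20617619, minus strand) stood at 3.07 and 3.71 FPKM in WT, 35.4 and 39.4 in KO and 3.38 and 3.09 in EE_KO (rise of 3.13 in KO, SE 0.14, adjusted p = 3.97e-07). It shares 7.9% of its windows with Rbm10, which is also X-linked and was listed at 2.39 and 2.31 FPKM in WT and 11.8 and 11.1 in KO, and no source used here gives the strand of the counts. Ndufa1 (chrX:37187588-37191163, minus strand) stood at 10.4 and 12.1, 72.3 and 72.4, and 11.2 and 3.67 (rise of 2.58 in KO, SE 0.38, adjusted p = 2.62e-04). The X-linked subunits thus reached 6.42-fold (Ndufa1), 11.0-fold (Ndufb11) and 21.5-fold (Cox7b) of their WT means. Cox7b passed the filter on low levels only through KO, so its rise was required for it to be tested. Of the 76 autosomal somatic members 17 rose and 44 fell.

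Of all FPKM, the mitochondrially encoded members made up 1.69 and 1.71% in WT, 11.3 and 6.92% in KO and 2.54 and 2.33% in EE_KO. They were 1.11 and 1.13 times the sum of all nuclear members in WT, 9.37 and 5.16 times in KO and 1.81 and 1.74 times in EE_KO. The numerator and the denominator both moved: nuclear members summed to 4999 ± 185 FPKM in WT and 3082 ± 54.2 in KO, and mitochondrial ones to 5578 ± 128 and 22316 ± 8784. Within the nuclear sum the testis forms went from 1505 ± 42.8 to 66.4 ± 16.8 and the somatic members from 3494 ± 142 to 3016 ± 37.4. File totals were 335071 and 321463 FPKM in WT and 251584 and 232716 in KO. Of these totals, somatic nuclear members held 1.07 and 1.06% in WT and 1.19 and 1.31% in KO. The KO libraries lay far apart in the mitochondrial sum, 28527 against 16105, yet both were above every other library, whose highest was 8012. mt-Co1, the catalytic subunit of complex IV, was the first of all members in each group and held 45.1 to 49.2% of the mitochondrial sum in the 6 libraries.

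mt-Co1 stood at 2778 and 2520 FPKM in WT, 12867 and 7428 in KO and 3939 and 3596 in EE_KO (log2 change 1.89 in KO, SE 0.26, adjusted p = 1.76e-04; not called with quantile scaling, 0.36). mt-Cytb, the mitochondrially encoded part of complex III, stood at 794.5 and 838.9, 4547 and 2497, and 1153 and 1055 (2.04, SE 0.26, adjusted p = 1.07e-04). mt-Nd1, a complex I subunit, stood at 690.1 and 752.3, 4250 and 2192, and 935.6 and 888.8 (2.08, SE 0.28, adjusted p = 1.48e-04). In each of these the first KO library was 1.73 to 1.94 times the second, and both lay above WT and EE_KO. mt-Nd6, the only one of the 13 on the other strand of the circle, was steadier, at 249.3 and 245.3, 1380 and 1156, and 349.9 and 393.6 (2.35, SE 0.13, adjusted p = 1.31e-06). The complex I gene mt-Nd2 stood at 378 and 365 FPKM in WT and 1955 and 1020 in KO (1.92, SE 0.26, adjusted p = 1.90e-04). The KO libraries lay further apart for mt-Nd4, at 362 and 351 in WT and 1443 and 595 in KO (1.37, SE 0.34, adjusted p = 0.00579), and for mt-Nd5, at 316 and 325 and at 1633 and 646 (1.68, SE 0.36, adjusted p = 0.00248). Without KO replicate 1 these became 0.74 for mt-Nd4 and 1.01 for mt-Nd5, both still called, and without KO replicate 2 they became 2.01 and 2.35.

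The remaining mitochondrial genes were listed at far lower levels, and sequence shared with nuclear copies moved with that. Of their 50-base windows, mt-Co2 shared 100%, mt-Co3 99.9%, mt-Atp6 99.5%, mt-Nd4l 98.8% and mt-Nd3 98.0% with other annotated genes. These 5 had WT means of 0.482 to 46.1 FPKM, whereas the 7 genes of the highest WT means, 247 to 2649 FPKM, shared between 0.0 and 62.2%. Most copies lie side by side on chromosome 1, in 6 pseudogenes (Gm28439, Gm28438, Gm28437, Gm10925, Gm28661 and Gm29216) between 24611535 and 24616197, minus strand, build GRCm38. Their FPKM summed to 81.3 and 87.1 in WT, 450.9 and 351.2 in KO and 107.2 and 98.7 in EE_KO, so the listed copies moved with the mitochondrial genes. No source used here says how reads that match both places were counted, and its part in these low levels was not tested; levels of these 5 genes are uncertain. mt-Atp8 is an exception, with 0.0% shared windows and a WT mean of 1.01 FPKM, from 3 recovered reads in each WT library.

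Among these, mt-Co2 stood at 50.9 and 41.2 FPKM in WT and 191.9 and 124.5 in KO (log2 change 1.73, SE 0.20, adjusted p = 7.11e-05), and mt-Atp6, of complex V, at 17.6 and 23.0 and at 113.0 and 112.8 (2.43, SE 0.18, adjusted p = 5.07e-06). mt-Co3 ran against the other mitochondrial genes within KO: it stood at 97.4 in the first KO library and 317.7 in the second, beside 21.7 and 17.3 in WT (3.12, SE 0.45, adjusted p = 2.61e-04). mt-Nd3 had 1 and 4 recovered reads in WT, 91 and 60 in KO and 6 and 9 in EE_KO. mt-Nd4l stood at 9.38 and 6.67 FPKM in WT, 32.6 and 6.78 in KO and 12.6 and 12.6 in EE_KO, with overlapping groups in KO against WT (0.86, SE 0.56, adjusted p = 0.185). mt-Atp8, with 16 and 3 recovered reads in KO, was not called either (0.65, SE 0.42, adjusted p = 0.185). Both passed when the second KO library was left out (1.91 for mt-Nd4l and 1.42 for mt-Atp8). Of the 6 genes with under 10% shared windows, 5 rose, and their summed level went from 2429 and 2527 to 13769 and 7511 FPKM.

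**Figure D3:**
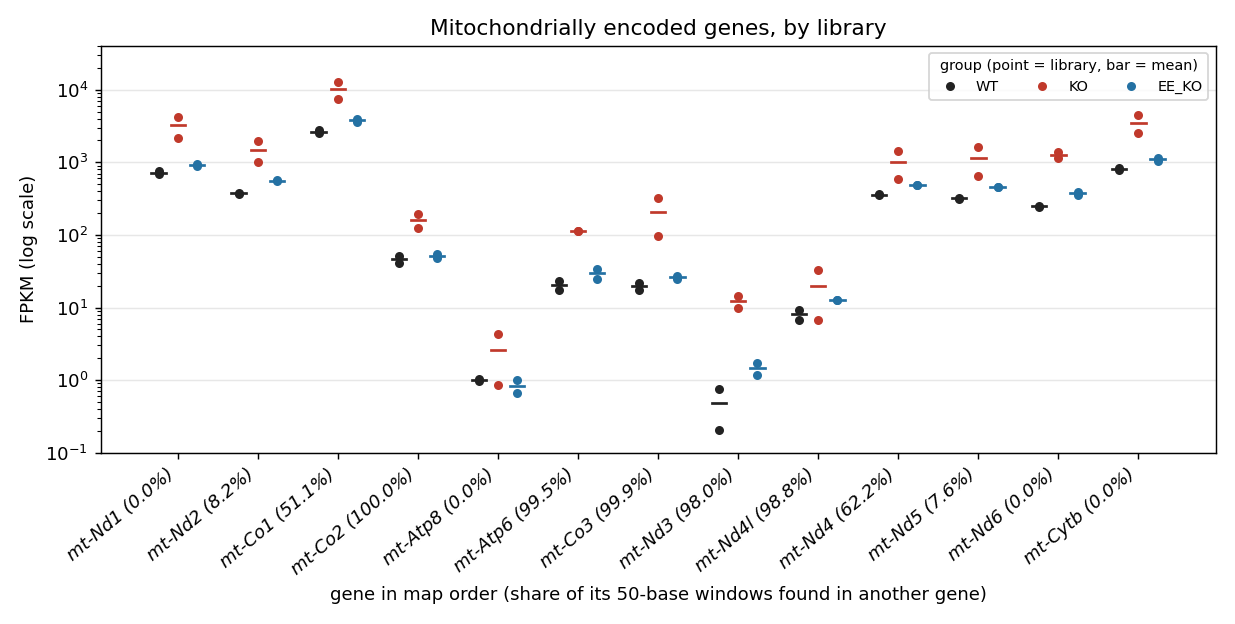
FPKM (y axis, log scale) of the 13 mitochondrially encoded genes in map order (x axis, with the share of 50-base windows found in another gene), with 1 point per library and a bar at the group mean. KO lies above WT and EE_KO except for 1 library each of mt-Atp8 and mt-Nd4l, and the genes with 98.0% or more shared windows are listed at 50.9 FPKM or less in WT.

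In complex I, which oxidises NADH, 34 nuclear subunits were tested, with a median of -0.53. On the deposited scale 5 rose, 22 fell and 7 were not called, beside 38.0% risen and 48.2% fallen among all genes tested. As a share of all FPKM, nuclear complex I members held 0.375 and 0.365% in WT and 0.338 and 0.386% in KO, so the groups overlapped. All 5 rises held under each scaling, as did the falls of Ndufa5, Ndufa7, Ndufa9, Ndufa12, Ndufb5, Ndufb10, Ndufc1, Ndufs6 and Ndufv2. Besides the X-linked pair, Ndufa10 had the largest rise, from 9.44 and 9.56 to 29.8 and 29.7 FPKM (log2 change 1.55, SE 0.11, adjusted p = 3.47e-06). The largest falls were those of Ndufa12, Ndufs6 and Ndufb5. Ndufs6, an accessory subunit of the matrix arm, fell from 49.2 and 44.9 to 11.9 and 15.0 (-1.74, SE 0.13, adjusted p = 6.48e-06), and Ndufb5, of the membrane arm, from 22.9 and 22.9 to 7.31 and 6.26 (-1.62, SE 0.13, adjusted p = 6.58e-06). Ndufa12 was uneven within groups, at 55.4 and 27.7 in WT, 4.90 and 9.10 in KO and 18.5 and 16.6 in EE_KO; KO lay below WT all the same (-2.38, SE 0.34, adjusted p = 2.30e-04). Ndufa12 shares 17.7% of its windows with the pseudogene Gm15920. Ndufb5 shares 11.2% with Mrpl47, which was listed at 10.8 and 10.4 FPKM in WT and 2.37 and 2.64 in KO. The core subunit Ndufv2, which carries an iron-sulfur centre, fell from 94.3 and 87.5 to 26.7 and 32.9, while Ndufs8, another core iron-sulfur subunit, rose from 24.4 and 25.7 to 35.1 and 41.8 FPKM.

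Complex II, succinate dehydrogenase, is the one complex that is wholly nuclear-encoded, and 1 of its 4 genes was called, as lower. Its summed FPKM was 168 ± 13.2 in WT, 160 ± 0.0216 in KO and 142 ± 3.31 in EE_KO; of all FPKM it held 0.0528 and 0.0492% in WT and 0.0635 and 0.0686% in KO. Sdha, the flavoprotein subunit, stood at 61.8 and 55.9 in WT and 42.6 and 43.0 in KO (-0.45, SE 0.10, adjusted p = 0.00356), but this call was lost with TPM and the difference was 0.20 with quantile scaling and 0.10 with mitochondrial genes left out of the total. Sdhb, the iron-sulfur subunit, differed by -0.05 (adjusted p = 0.699; 0.39 with TPM, 0.58 with quantile scaling and 0.51 with the nuclear total). The membrane anchors Sdhc (0.11, adjusted p = 0.402) and Sdhd (0.21, adjusted p = 0.108) were not called as deposited, and both passed as higher with TPM (0.54 and 0.65), quantile scaling (0.58 and 0.89) and the nuclear total (0.66 and 0.77).

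In complex III, which hands electrons to cytochrome c, 2 of 9 nuclear members rose and 6 fell, beside 38.0% and 48.2% of all genes tested. Of all FPKM these members held 0.172 and 0.170% in WT and 0.158 and 0.166% in KO. Cyc1, cytochrome c1, rose from 14.3 and 20.4 to 45.8 and 44.9 FPKM (1.36, SE 0.16, adjusted p = 6.84e-05), and Uqcr11, a small accessory subunit, from 21.1 and 22.7 to 47.7 and 48.0 (1.09, SE 0.13, adjusted p = 6.98e-05). The core protein Uqcrc1 fell from 102.8 and 90.5 to 35.8 and 34.3 (-1.44, SE 0.11, adjusted p = 4.93e-06), and Uqcrq, a small subunit, from 112.7 and 111.0 to 37.5 and 38.8 (-1.53, SE 0.10, adjusted p = 2.31e-06). Uqcrc2, the partner core protein, fell from 56.2 and 51.1 to 31.2 and 26.3. It shares 17.6% of its windows with Pdzd9, listed at 117.7 and 85.8 FPKM in WT and 1.43 and 1.48 in KO. The part of that overlap in the fall was not tested. Cyc1 and the core proteins are parts of the same complex, and their RNAs moved in opposite directions. The falls of Uqcr10, Uqcrb and Uqcrfs1 (-0.42, -0.69 and -0.53) are not among those that held under all 5 scalings.

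Complex IV, cytochrome c oxidase, held the widest spread, from -5.05 (Cox8c) to 3.18 (Cox7b) among its nuclear members. Of 17 tested, 6 rose and 11 fell, beside 38.0% and 48.2% of all genes tested. Under all 5 scalings the falls kept were those of Cox6b2, Cox7a2, Cox7b2, Cox8c and Ndufa4l2. The sum over nuclear complex IV members was 2291 and 2197 FPKM in WT, 877 and 904 in KO and 1934 and 1937 in EE_KO. As a share of all FPKM it was 0.684 and 0.683% in WT, 0.349 and 0.388% in KO and 0.613 and 0.596% in EE_KO. Beside it, the 4 testis forms together, Cyct included, went from 1536 and 1475 to 54.5 and 78.3. Cox5b, a zinc-binding subunit, went from 35.1 and 35.2 to 22.6 and 22.8 (-0.61, SE 0.11, adjusted p = 9.53e-04), a call lost with TPM, quantile scaling and the nuclear total.

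The nuclear members of complex V, the ATP synthase, summed to 713 and 686 FPKM in WT, 714 and 728 in KO and 659 and 649 in EE_KO. As a share of all FPKM this was 0.213 and 0.213% in WT, 0.284 and 0.313% in KO and 0.209 and 0.1995% in EE_KO. Of 17 tested, 6 rose and 7 fell, beside 38.0% and 48.2% of all genes tested. Of the falls, only those of Atp5s and Atp5j held under all 5 scalings. The catalytic subunits Atp5a1 (0.19, adjusted p = 0.111) and Atp5b (-0.22, adjusted p = 0.0667) were not called. The 3 genes for the c subunit of the rotor ring, which encode the same mature protein, all rose: Atp5g2 from 6.78 and 6.19 to 32.6 and 24.7 FPKM, Atp5g3 from 19.4 and 21.4 to 56.4 and 61.8, and Atp5g1 from 4.87 and 5.66 to 11.1 and 10.3. Their sum was 31.1 and 33.3 in WT, 100.02 and 96.8 in KO and 29.5 and 27.6 in EE_KO. Atp5g2 shares 38.3% of its windows with other genes, chiefly the pseudogenes Gm10175 and Gm10231. Atp5s, a coupling factor, fell from 20.7 and 20.7 to 6.55 and 6.01 (-1.58, SE 0.11, adjusted p = 3.93e-06) and Atp5j, of the stalk, from 33.3 and 33.3 to 16.9 and 14.2 (-1.06, SE 0.12, adjusted p = 5.49e-05). Atp5d, of the central stalk, fell as deposited (-0.55, adjusted p = 0.00196) but not with TPM, and turned to 0.13 with quantile scaling.

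In EE_KO against KO, which shares its KO libraries with the comparison above, 38 members rose and 36 fell, beside 47.8% and 37.8% of all genes tested. All 4 testis forms rose, by 3.08 (Cyct), 3.33 (Cox7b2), 4.004 (Cox6b2) and 4.85 (Cox8c) on the log2 scale, and 11 of 13 mitochondrial genes fell. Cycs, Cox6b1, Cox7b and Cox8a fell by 3.21, 2.41, 2.93 and 3.28. Of the fallen, Cox7b, Cox7a1 and mt-Nd3 had passed the filter only through KO, so a higher KO level was required of them here as well. Ndufa4l2 rose by 3.89 (SE 0.21, adjusted p = 1.35e-06). Under all 5 scalings 18 of 96 members rose, a smaller share than the 38.6% of all genes, and 35 fell (37.8% of all genes). mt-Co1 (-1.38 as deposited) was not among these 35, because quantile scaling left no difference between EE_KO and KO for it. That scaling gives equal values to equal ranks, so it could not show the size of this difference. The weakest mitochondrial calls were mt-Nd4 (-0.91, SE 0.34, adjusted p = 0.0373) and mt-Nd5 (-1.15, SE 0.36, adjusted p = 0.0166). That of mt-Nd4 was lost without WT replicate 1, WT replicate 2, KO replicate 1 (-0.27), EE_KO replicate 1 or EE_KO replicate 2, and also with no filter and with only the groups compared, and that of mt-Nd5 without either EE_KO replicate and with no filter. Ndufa12 rose by 1.26 (SE 0.34, adjusted p = 0.00815), a call lost without KO replicate 1 (0.88), with TPM (0.96) and with the nuclear total (0.86). mt-Nd4l, not called (-0.25), turned to 0.81 without KO replicate 1.

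In EE_KO against WT no member was called by limma, as with each other scaling and with voom on the recovered reads; over all genes tested 0.0260% rose and 0.0195% fell. At an unadjusted p below 0.05 there were 21 of 96 members, beside 7.48% of all genes. The differences ran by class. Both EE_KO libraries lay above both WT libraries for 11 of 13 mitochondrial genes (16.7% of all genes did), the exceptions being mt-Co2 and mt-Atp8, with a median log2 difference of 0.51. Both EE_KO libraries lay below both WT libraries for 43 of 79 somatic nuclear members and 3 of 4 testis forms (19.8% of all genes did), and the somatic median was -0.15. With TPM, median-of-ratios scaling and the nuclear total the counts were 11 of 13 mitochondrial genes above in each (beside 20.9, 18.3 and 22.2% of all genes) and 39, 41 and 37 of 79 somatic members below (beside 17.3, 19.0 and 16.2%). Genes were not tested as a group, and with 2 libraries a side the exact permutation p of the mitochondrial share (1.70 ± 0.0109% of all FPKM in WT, 2.43 ± 0.148% in EE_KO) was 0.333.

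The smallest p belonged to Ndufs6, at 49.2 and 44.9 FPKM in WT and 27.5 and 25.1 in EE_KO (-0.82, SE 0.13, adjusted p = 0.185). Cox5b stood at 35.1 and 35.2 in WT and 24.3 and 21.1 in EE_KO (-0.61, SE 0.11, adjusted p = 0.185), and Ndufa3, of complex I, at 21.9 and 23.8 and at 14.4 and 13.3 (-0.68, SE 0.14, adjusted p = 0.208). For Cox5b the EE_KO libraries lay on both sides of KO (22.6 and 22.8), and for Ndufa3 it was below KO (25.5 and 20.1), so these did not follow the return seen for the testis forms. Among mitochondrial genes mt-Nd6 had the smallest p, with 249.3 and 245.3 in WT and 349.9 and 393.6 in EE_KO (0.58, SE 0.13, adjusted p = 0.238). Ndufa1 differed within EE_KO, at 11.2 and 3.67 FPKM; without EE_KO replicate 1 it was called lower than WT (-1.39), the single call in this comparison when libraries were left out.

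**Figure D4:**
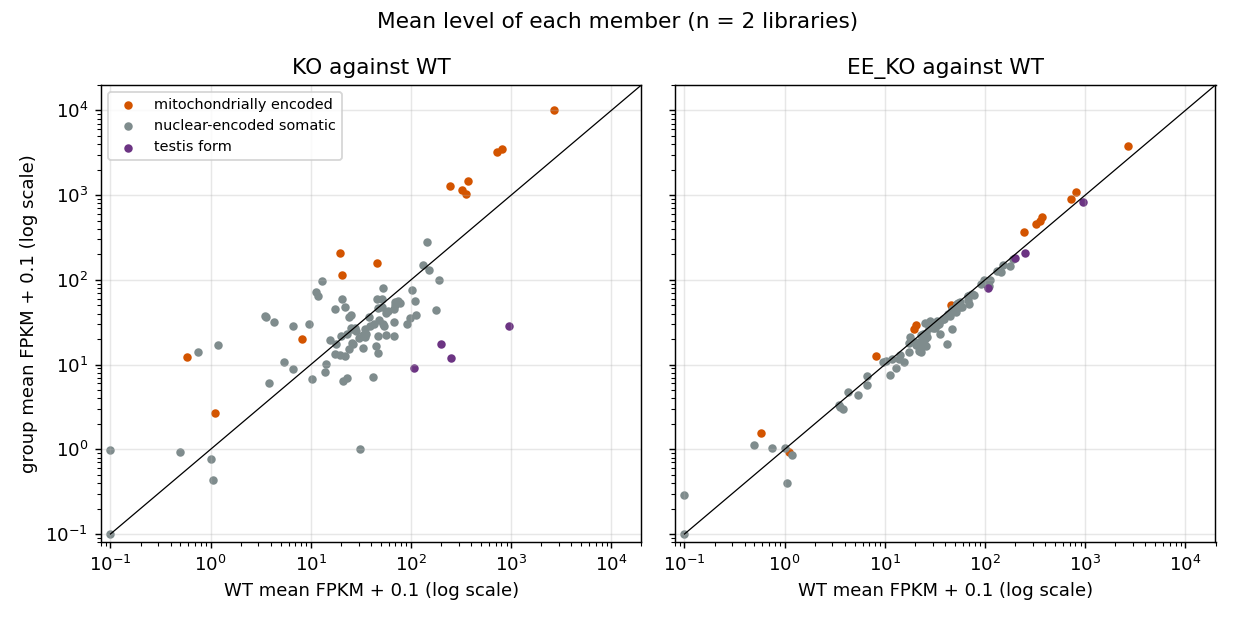
Mean FPKM + 0.1 of each respiratory chain gene in KO (left) and EE_KO (right) on the y axis against WT on the x axis, both log scales, n = 2 libraries a group, with the line of equal levels. In KO the classes part from the line in different directions, and in EE_KO the members lie near it, with 11 of 13 mitochondrial genes above in both libraries.

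The genes around the chain were taken from lists, and their counts in KO stand beside the 38.0% risen and 48.2% fallen among all genes tested (38.0% and 39.2% under all 5 scalings). Of 49 assembly factors tested (53 listed) 18 rose and 21 fell, shares near that background. Under all 5 scalings 18 rose, a share also near it, and 12 fell, a share below it. Of the risen, 4 (Coa7, Ndufaf4, Ndufaf6 and Sdhaf3) passed the filter on low levels only through KO. The complex I assembly factor Ndufaf3 fell from 289.3 and 260.4 to 11.9 and 14.6 FPKM (-4.28, SE 0.12, adjusted p = 7.41e-08), and Uqcc2, of complex III assembly, from 156.7 and 151.2 to 23.7 and 22.1 (-2.69, SE 0.10). Cox14, which takes part in making the mt-Co1 protein, rose from 12.2 and 13.9 to 57.2 and 58.6 (2.07, SE 0.18, adjusted p = 1.11e-05).

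Of 33 tested genes for the expression of mitochondrial DNA (36 listed) 11 rose and 15 fell, and 11 and 6 did so under all 5 scalings; 3 of the risen (Mtrf1l, Polg2 and Ssbp1) passed the filter only through KO. Tfam, which packs and transcribes mitochondrial DNA, stood at 3.56 and 7.13 FPKM in WT and 4.87 and 5.33 in KO (0.0016, SE 0.29, adjusted p = 0.996), and the mitochondrial RNA polymerase Polrmt at 8.87 and 9.52 and at 8.83 and 10.2 (0.04, adjusted p = 0.784). Hsd17b10, an X-linked subunit of mitochondrial RNase P, rose from 2.15 and 1.07 to 26.1 and 25.1 (3.38, SE 0.22, adjusted p = 2.86e-06), and Lrpprc, which stabilises mitochondrial mRNAs, from 7.66 and 7.68 to 15.2 and 17.3. Of 7 tested biogenesis regulators (12 listed) 6 rose, under all 5 scalings, among them Nrf1 (2.01 and 1.99 to 3.497 and 3.31 FPKM) and Gabpa, an ETS factor (7.50 and 6.04 to 11.8 and 10.04). Esrra fell as deposited (-0.65), though not under all 5. Regulators below the filter went both ways. Ppargc1a averaged 0.986 FPKM in WT and 0.0470 in KO, and Esrrb 0.802 and 0.127. Ppara (0.310 and 1.33), Esrrg (0.0394 and 0.586) and Ppargc1b (0.347 and 0.467) were higher in KO.

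Of the 13 citric acid cycle genes 6 rose and 5 fell (6 and 2 under all 5 scalings). The partner subunits of succinyl-CoA ligase moved in opposite directions, with Sucla2 the higher in KO as well: the ATP-forming Sucla2 fell from 122.5 and 109.9 to 42.2 and 42.2 FPKM (-1.44, SE 0.11, adjusted p = 5.19e-06), while the GTP-forming Suclg2 rose from 0.695 and 1.17 to 12.8 and 10.9 (2.74, SE 0.19, adjusted p = 3.76e-06). Among the 7 carriers and channels 4 rose and 3 fell (4 and 2 under all 5 scalings). The ADP/ATP carriers repeated the pattern of the paired subunits, as Slc25a31, the testis carrier, fell from 43.0 and 40.8 to 17.9 and 20.0, and the somatic carriers Slc25a4 and X-linked Slc25a5 rose from 5.28 and 4.69 to 61.3 and 55.2 and from 9.81 and 10.8 to 149.5 and 117.2.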

How the data were processed

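RNA-seq was run on 6 libraries of STA-PUT purified pachytene cells, 2 in each of 3 groups, taken from the sample labels. The authors deposited FPKM per Ensembl gene, per the file headers, for 54532 genes. The builds in the submitters' processing notes are GRCm38 and mm10. Not given in the sources used here are the aligner, the counter, its handling of reads with several matches and the strand. Symbols, types, exon-union lengths and positions came from GENCODE M21 (54495 genes matched, 37 did not). Lengths are unions of all annotated exons, so a gene with long retained introns, such as Atp5l, is listed low. Multiplied by length, 96.8 to 97.0% of non-zero FPKM came out as whole reads (tolerance 0.01), and 1 read over 2 kb equals 0.0278 to 0.0357 FPKM. The depth is the same for all members of a library, so low FPKM values are the least precise.

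log2(deposited FPKM + 1) was fitted in limma 3.58.1 (R 4.3.3) with a mean-variance trend, group as the single term and all 6 libraries, over 15366 genes with a mean of at least 1 FPKM; 535 short RNA genes and 6 repeated symbols were left out. The added 1 FPKM understates changes of low genes. p-values were adjusted over all genes tested, and members were then read off. Shares and sums were compared by exact two-sided permutation over libraries, where 2 against 2 allows no p below 0.333. Shared sequence is the share of a gene's 50-base windows, over its annotated transcripts, that occur in transcripts of another gene. Promoter windows are RefSeq's (GRCm38.p6).

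Named are all mitochondrially encoded members, the testis forms and partners, the other tissue forms, the Sdh genes, X-linked members, the 3 largest called rises and falls of each complex, the 3 smallest p in EE_KO against WT and the 5 highest nuclear members of WT; Ndufs8, Ndufv2, Uqcr10, Uqcrb, Uqcrfs1, Atp5a1, Ndufa4 as a pair with Ndufa4l2, and the genes named from the pathway and marker lists were chosen after their values were seen. The members, lists and markers were chosen with earlier results of these data known. Alternatives were other pseudocounts, filters and scalings, a replicate block, no trend, only the groups compared, voom on recovered reads, each library left out, and, added after seeing the data, members with at least 50% shared windows left out. The other software was matplotlib 3.10.9, scipy 1.17.1, numpy 2.4.6 and pandas 2.3.3 under Python 3.11.15.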

Additional observations from a re-analysis of the deposited data

How the results depend on the processing

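Counts of called members depended on the scaling. In KO against WT the risen went from 31 to 48 with quantile scaling and 47 with the nuclear total, and the fallen from 48 to 24 with TPM and 21 with either quantile scaling or the nuclear total. In EE_KO against KO the risen went from 38 to 21 with TPM and 20 with quantile scaling and with the nuclear total. Other settings kept the counts within 1.5 times. Leaving out each library gave 30 to 32 risen and 45 to 48 fallen members in KO against WT, 29 to 37 and 30 to 36 in EE_KO against KO, and 0 risen and 0 to 1 fallen in EE_KO against WT; the cause was not tested. Leaving out members with at least 50% shared windows gave 25 risen and 48 fallen in KO against WT. Direction changed with scaling for Atp5d (KO against WT 0.13 with quantile; EE_KO against KO -0.10 with quantile and -0.005 with the nuclear total), Cox7a2l (KO against WT 0.24 with quantile and 0.11 with the nuclear total; EE_KO against KO -0.35 with TPM, -0.55 and -0.45), Sdha (KO against WT 0.20 and 0.10; EE_KO against KO -0.41 and -0.35), Ndufa3 (KO against WT 0.42 with TPM, 0.49 and 0.54) and Sdhb (0.39 with TPM, 0.58 and 0.51). mt-Nd4l in EE_KO against KO ran from -1.30 without KO replicate 2 to 0.81 without KO replicate 1. The replicate numbers did not pair the libraries: deviations of same-numbered libraries correlated at -0.031 (WT and KO), 0.054 (WT and EE_KO) and 0.091 (KO and EE_KO) over 15366 genes. With the replicate block 32 members rose and 48 fell in KO against WT, 36 rose and 35 fell in EE_KO against KO, and 0 and 0 in EE_KO against WT. With 2 libraries a group and few reads, mt-Nd3, mt-Atp8 and Cox8b are the least certain levels.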
